A study of Sus scrofa with 6 samples.

Results

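The genes described here are those of a switch that restrains the phosphatase PP2A while CDK1 is active, and genes of PP2A itself. The switch genes are the kinase gene MASTL and the inhibitor genes ENSA and ARPP19. The PP2A subunit genes are PPP2CA, PPP2CB, PPP2R1A, PPP2R1B, PPP2R2A and PPP2R5C. These 9 genes were chosen by symbol and not by a cutoff on a measured value, though with earlier results of these data known. Of these, 8 had a row among the 25880 Ensembl identifiers of the count files. ARPP19 was matched to none of those identifiers and was not analysed here. The libraries were RNA-seq of polyadenylated RNA from oocytes of the pig (Sus scrofa) that had reached MII, the metaphase at which a mature egg waits for the sperm. In 3 libraries the oocytes had been treated with malathion, an organophosphate insecticide, at 1 mM in the maturation medium (from a 0.75 M stock in DMSO), and 3 libraries were from control oocytes. Oocytes came from antral follicles of slaughterhouse ovaries and were collected as cumulus-oocyte complexes. Whether control medium held DMSO, how many oocytes entered a library, and whether replicates were separate cultures were not stated in the labels, so a p-value here reflects only how much these libraries vary, and that variation may be technical. The study asked how malathion affects the mRNA stored in oocytes.

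PP2A is assembled from a catalytic subunit, a scaffold subunit and a regulatory subunit that sets its targets. With a B55 regulatory subunit it removes the phosphates that CDK1 places on its substrates. MASTL, also called Greatwall, phosphorylates ENSA and ARPP19, and these small proteins then bind and inhibit PP2A-B55, which keeps CDK1 substrates phosphorylated through M phase. In mouse oocytes, MASTL is needed to bring CDK1 activity back for the second meiotic division. PP2A with B56 subunits acts at centromeres, where shugoshin recruits it to guard cohesin. Since transcription is largely silent in such oocytes, the counts mainly reflect maternal transcripts stored earlier.

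Gene counts summed to 25816040 to 42312341 in the malathion libraries and to 27105849 to 29471856 in the control libraries. CPM are counts scaled to these sums. Both replicate 3 libraries stood apart, with 8492 genes detected (at least 1 count) in malathion replicate 3 and 8344 in control replicate 3, against 12211 to 14707 in the other 4 libraries. Summed CPM of 13 oocyte markers ranged from 4477 to 84450 in malathion and from 4288 to 77680 in control libraries, with the lowest value of each group in replicate 3. Markers of cumulus and granulosa cells, 14 with a row, summed to 68.1 to 742 CPM in malathion and 39.0 to 666 CPM in control libraries, and AMH was at 0 in each library. Markers of theca and stroma (7 genes, CYP17A1 and INSL3 at 0 in each library) summed to at most 8.46 CPM in malathion and 14.8 CPM in control libraries, and those of blood and endothelium (6 genes, CDH5 at 0) to at most 13.1 CPM in malathion and 10.9 CPM in control libraries. Control replicate 2 held the highest CPM of 54.7% of the 10678 genes tested. Like the oocyte sum, the sums of the other marker lists were lowest in replicate 3 of each group. There theca and stroma markers summed to 0.402 CPM in malathion and 0.339 CPM in control. Those of blood and endothelium summed to 0.567 and 0.747 CPM in the same order. In a bulk library, fewer cells of a type, less RNA per cell and more counts in other genes cannot be told apart. The part of these library differences in the results below was not tested beyond the values given with and without these libraries.

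MASTL (ENSSSCG00000011065), the kinase at the head of the switch, stood at 299, 313 and 13.2 CPM in malathion replicates 1, 2 and 3, against 312, 144 and 708 CPM in control replicates 1, 2 and 3. The highest and the lowest values of the 6 were the replicate 3 libraries, and the groups overlapped. Group means were 208 ± 169 CPM in malathion and 388 ± 289 CPM in control libraries (SD, n = 3 each). The log2 fold change was −0.90 ± 1.82 (SE, 95% interval −4.47 to 2.68). It stood at 0.42 without both replicate 3 libraries. It was −0.03 when control replicate 2 was left out as well, which leaves control replicate 1 as the only control library. Scaling with TMM factors, which differ widely between the replicate 3 libraries and the rest, gave −3.91. The Wilson 95% interval, which covers counting error of reads only, was 12.2 to 14.4 CPM for MASTL in malathion replicate 3 (560 counts). That counting error was small beside the spread. The reads come from amplified cDNA without molecular identifiers, so losses before amplification are not covered and were not tested.

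ENSA (ENSSSCG00000006653), the inhibitor that MASTL activates, had the widest spread of the 8 genes on library totals. It stood at 6.97, 14.5 and 0.118 CPM in malathion replicates 1, 2 and 3, and at 6.73, 299 and 0.305 CPM in control replicates 1, 2 and 3. Control replicate 2 held 8094 counts, whereas the replicate 3 libraries held 5 in malathion and 9 in control. The highest library was thus 2527-fold above the lowest, and 98.5% of tested genes had a smaller range on the log2(CPM + 1) scale. With TMM factors MASTL had the wider range, 6.93 against 5.51 for ENSA on that scale. Against this, the replicate 1 libraries were close, with 180 counts in malathion and 187 in control and a log2 ratio of 0.04. ENSA averaged 7.20 ± 7.20 CPM in malathion and 101.9 ± 170.4 CPM in control libraries (SD, n = 3 each). Its log2 fold change, −3.82 ± 2.14 (SE), had a 95% interval of −8.01 to 0.36 and an unadjusted p of 0.0735 in edgeR's quasi-likelihood test, the smallest of the 8 genes. The value stood at −3.83 without both replicate 3 libraries, and its sign turned without control replicate 2 (1.03). Unadjusted p was under 0.05 with TMM factors (0.0364), with DESeq2 size factors (0.0300) and without control replicate 3 (0.0200), at adjusted p of 0.9998, 0.9999 and 0.9998 (edgeR, Benjamini-Hochberg). In the same order, 383 of 10678, 413 of 10678 and 188 of 11655 tested genes had an unadjusted p under 0.05 in these fits. With the replicate number as a block the fold change was −1.84 (edgeR, unadjusted p = 0.123), and limma-voom gave −1.99 (unadjusted p = 0.526).

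**Figure D1:**
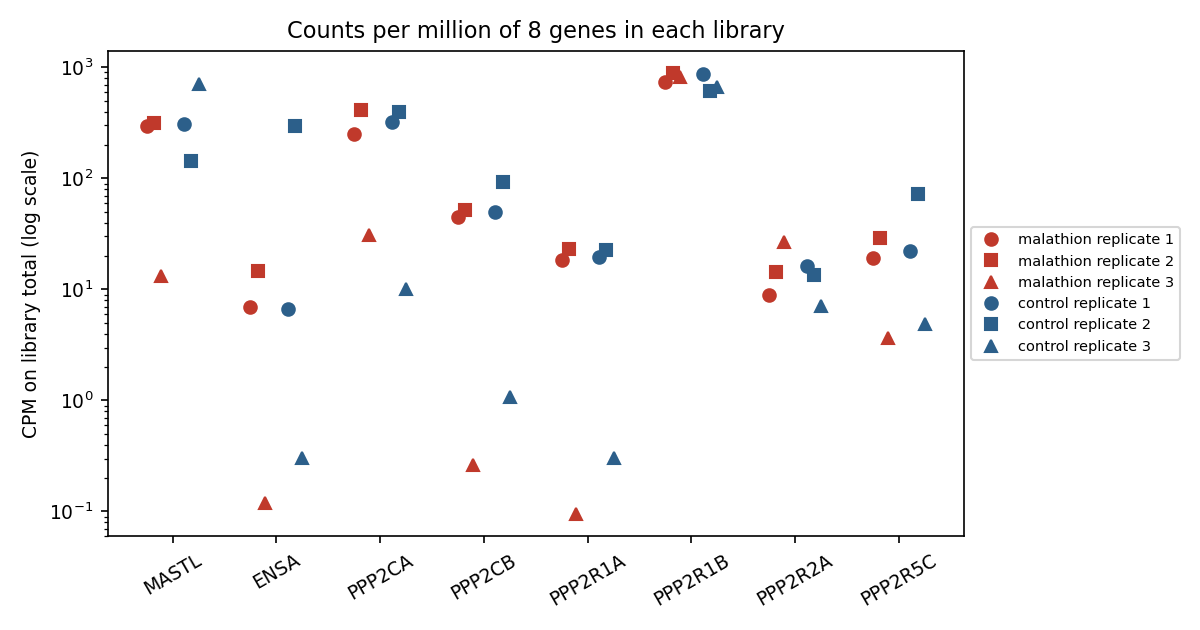
CPM on the library total (log axis) of the 8 genes in each library, malathion in red left of control in blue, with 1 point per library and the shape giving the replicate number. PPP2R1B lies between 619 and 894 CPM in all 6 libraries, while ENSA reaches 299 CPM in control replicate 2 and is at 0.118 and 0.305 CPM in the replicate 3 libraries.

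The catalytic subunit is encoded by PPP2CA and PPP2CB, whose proteins are nearly identical. Reads that match both genes equally would be lost to the row of reads aligned to more than 1 place, so the levels of both are uncertain. PPP2CA (ENSSSCG00000014298) stood at 249, 417 and 30.7 CPM in malathion replicates 1, 2 and 3 and at 322, 400.3 and 10.1 CPM in control replicates 1, 2 and 3. On library totals, replicate 3 was lowest in each group and the groups overlapped. This depended on the scaling. With TMM factors malathion replicate 3 was the highest of its group (222 CPM), while control replicate 3 stayed the lowest of its own (71.6 CPM). The range on the log2(CPM + 1) scale was 5.24 on library totals and 1.62 with TMM factors. A smaller range was held by 75.4% and 30.1% of tested genes in the same order. The means were 232 ± 194 CPM in malathion and 244 ± 207 CPM in control libraries (SD, n = 3 each), with a log2 fold change of −0.07 ± 1.82 (SE). That sign was not stable: it was 0.61 with TMM factors, 0.60 with DESeq2 size factors, 0.45 without malathion replicate 3, 0.18 without control replicate 1, 0.48 without control replicate 2 and −0.12 without both replicate 3 libraries.

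PPP2CB (ENSSSCG00000015842) stood at 44.7, 51.6 and 0.260 CPM in malathion replicates 1, 2 and 3, against 49.7, 93.7 and 1.09 CPM in control replicates 1, 2 and 3. On library totals, the order of the libraries within each group was that of PPP2CA. In malathion replicate 3, 11 reads were counted, and 32 in control replicate 3. Its log2 fold change was −0.58 ± 1.94 (SE), and 0.34 without control replicate 2. Without both replicate 3 libraries it was −0.57.

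The scaffold subunit is encoded by PPP2R1A and PPP2R1B, whose counts differed in how even they were across libraries. PPP2R1B (ENSSSCG00000029538) stood at 736, 894 and 824 CPM in malathion replicates 1, 2 and 3 and at 872, 619 and 669 CPM in control replicates 1, 2 and 3. Its highest library was 1.44-fold above its lowest. On library totals, only 6 of the 10678 tested genes had a smaller range on the log2(CPM + 1) scale, where PPP2R1B had 0.53 and the median gene 3.81. This evenness depended on the scaling, since CPM divided by TMM factors ran from 173 to 5961 and 91.3% of tested genes then had a smaller range. The position of a gene within its library needs no scaling between libraries. PPP2R1B lay at the 98.6, 98.7 and 97.9 percentile of detected genes in malathion replicates 1, 2 and 3 and at 98.8, 98.4 and 97.1 in control replicates 1, 2 and 3. So near the top of the scale a percentile has little room to move, and it is taken over different numbers of detected genes, so these positions do not settle how even the gene was. Malathion libraries averaged 818 ± 78.9 CPM and control libraries 720.0 ± 134 CPM (SD, n = 3 each), and the log2 fold change was 0.18 ± 1.80 (SE), with 0.13 without both replicate 3 libraries, 0.09 without control replicate 2, and 0.32 with TMM factors.

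PPP2R1A (ENSSSCG00000024413), the other scaffold gene, stood at 18.4, 23.3 and 0.0945 CPM in malathion replicates 1, 2 and 3 and at 19.6, 22.9 and 0.305 CPM in control replicates 1, 2 and 3. The replicate 1 and 2 libraries of both groups lay between 18.4 and 23.3 CPM, and the replicate 3 libraries held 4 counts (malathion) and 9 counts (control). Of the 8 genes, PPP2R1A and ENSA had under 10 counts in both replicate 3 libraries, as did 41.9% of tested genes. The log2 fold change of PPP2R1A was −0.03 ± 2.11 (SE), with 0.55 without malathion replicate 3, 0.27 without control replicate 1, 0.49 without control replicate 2, −0.03 without both replicate 3 libraries and 0.06 with TMM factors.

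**Figure D2:**
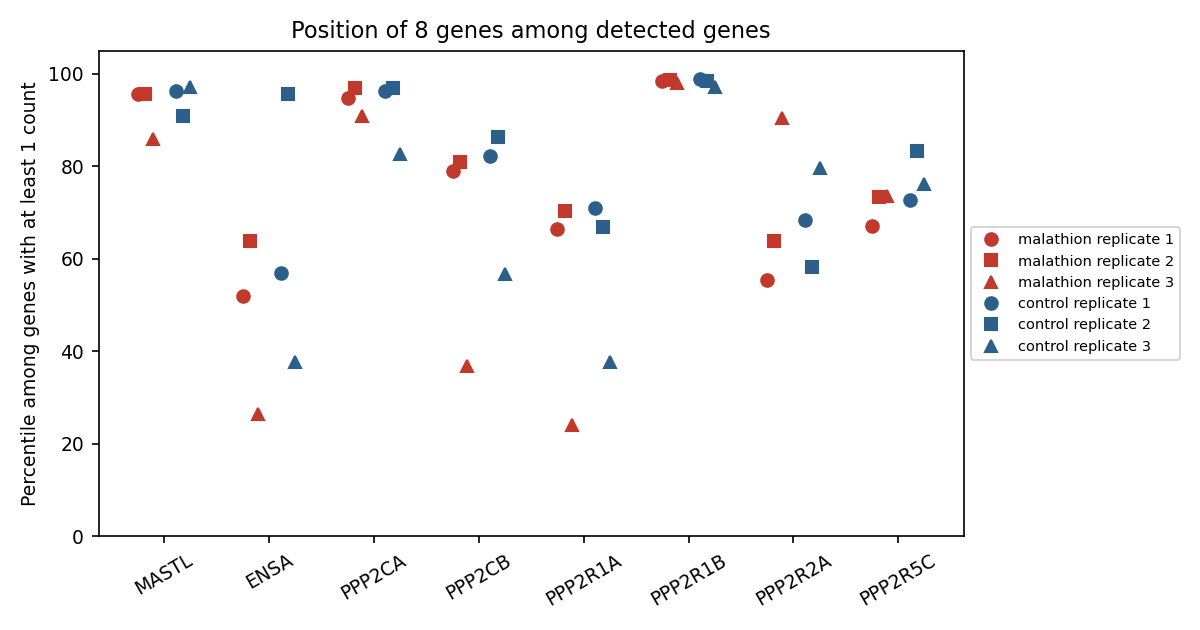
Percentile of each of the 8 genes among the genes with at least 1 count in the same library (y axis, 0 to 100), malathion in red left of control in blue. PPP2R1B lies between 97.1 and 98.8, near the top of the scale, and ENSA ranges from 26.4 in malathion replicate 3 to 95.7 in control replicate 2.

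Among the regulatory subunits, PPP2R2A (ENSSSCG00000009657) encodes a B55 subunit, of the family that directs PP2A to CDK1 substrates. It stood at 8.83, 14.4 and 27.0 CPM in malathion replicates 1, 2 and 3, against 16.2, 13.4 and 7.06 CPM in control replicates 1, 2 and 3. Its highest library was malathion replicate 3, which held 1143 counts, and its lowest was control replicate 3. The log2 fold change was 0.46 ± 2.11 (SE), and it turned to −0.07 without malathion replicate 3 and to −0.35 without both replicate 3 libraries. Without control replicate 2 it was 0.53, and TMM factors gave 1.76.

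PPP2R5C (ENSSSCG00000002540) encodes a B56 subunit, of the family that shugoshin binds. It stood at 19.1, 29.2 and 3.62 CPM in malathion replicates 1, 2 and 3, and at 22.4, 72.5 and 4.92 CPM in control replicates 1, 2 and 3. Control replicate 2 was the highest library and the groups overlapped. Its log2 fold change was −0.94 ± 2.02 (SE), −0.98 without both replicate 3 libraries and 0.34 without control replicate 2.

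Malathion was compared with control by edgeR's quasi-likelihood test on counts scaled to library totals. None of the 8 genes passed at a Benjamini-Hochberg adjusted p of 0.05 over 10678 genes (adjusted p = 1 for each), and 0 of the 8 had an unadjusted p under 0.05. Over all tested genes 0 passed, or 0%, and 110 genes, or 1.03%, had an unadjusted p under 0.05. DESeq2 and limma-voom also called 0 genes, with 227 and 3 at an unadjusted p under 0.05. DESeq2 gave an adjusted p to only 4 of the 8 genes. Malathion and control CPM overlapped for each of the 8 genes, and over all tested genes the groups did not overlap for 0.749%.

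By sign alone, 2 of the 8 fold changes were positive and 6 negative, beside 3598 positive and 7080 negative over all tested genes. The median log2 fold change was −0.33 for the 8 genes and −0.33 for all tested genes. With TMM factors the signs were split 4 to 4, with medians of −0.18 for the 8 and −0.08 for all tested genes. Control replicate 2 held the highest CPM of 3 of the 8 genes (ENSA, PPP2CB and PPP2R5C), and malathion replicate 3 the lowest of 5, a library that was lowest for 54.5% of all tested genes. Without control replicate 2, 7 of the 8 were positive, with a median of 0.41 for the 8 and 0.41 for all tested genes. The intervals were wide, with a median half-width of 4.36 on the log2 scale over all tested genes. A difference of a size within the interval of a gene is thus not excluded.

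**Figure D3:**
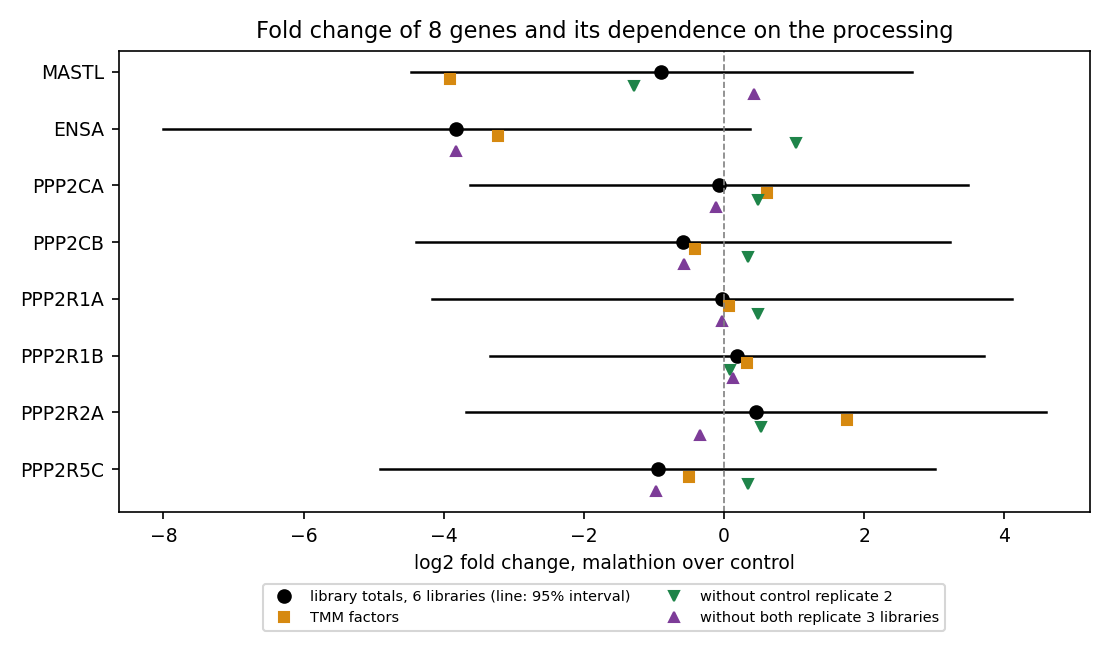
Log2 fold change (malathion over control) of the 8 genes on library totals, as black points with 95% intervals, beside the values with TMM factors, without control replicate 2 and without both replicate 3 libraries. Each interval spans 0, and ENSA turns from −3.82 to 1.03 without control replicate 2.

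Over tested genes, r of log2 CPM was 0.95 between the replicate 1 libraries, 0.844 between replicates 2 and 0.811 between replicates 3. Genes are not independent replicates. Malathion replicate 2 correlated more closely with control replicate 1 (r = 0.972) than with control replicate 2, so the same number does not mark the closest libraries. Between the replicate 1 libraries the 8 genes lay close together. The log2 ratio of malathion replicate 1 to control replicate 1, on CPM plus 1, had a median size of 0.19 for the 8 genes and 0.30 for all tested genes. The same median size was 0.69 for the 8 and 0.78 for all tested genes in replicates 2. In replicates 3 it was 0.54 for the 8 and 0.23 for all tested genes. There 41.9% of tested genes and 25% of the 8 had under 10 counts in both libraries. The added 1 CPM keeps such ratios small, so these 2 medians are not on an equal footing. Between the replicate 1 libraries PPP2R2A was farthest apart, at −0.81, with 228 counts in malathion and 451 in control. In the replicate 2 libraries, ENSA was at −4.27, PPP2R5C at −1.28 and MASTL at 1.11, whereas PPP2R1A was at 0.02 and PPP2CA at 0.06. In the replicate 3 libraries, MASTL was at −5.64, PPP2R2A at 1.80 and PPP2CA at 1.52. Of the 8 genes, 2 (25%) had the same sign in all 3 pairs of the same number, near the 21.4% of all tested genes that did. A gene at 0 counts in both libraries of a pair has no sign, which lowers the 21.4%. The 2 genes were PPP2CB and PPP2R5C. PPP2CB was at −0.15, −0.85 and −0.73 and PPP2R5C at −0.22, −1.28 and −0.36 in replicates 1, 2 and 3.

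Pairs of genes for the same kind of subunit (catalytic, scaffold or regulatory) were set against each other within a library. The share of the first gene in the counts of both does not depend on the scaling between libraries. Shares are of reads, not of molecules, since the lengths of the counted transcripts were not used. PPP2CA made up 84.8%, 89.0% and 99.2% of the catalytic counts in malathion replicates 1, 2 and 3, against 86.6%, 81.0% and 90.3% in control replicates 1, 2 and 3. The highest share was in replicate 3 of each group, and the groups overlapped. Means were 91.0% ± 7.39 in malathion and 86.0% ± 4.66 in control libraries (SD, n = 3 each; exact two-sided permutation p = 0.5, adjusted p = 0.9 over 3 shares). The difference of 4.995 percentage points was 0.902 without malathion replicate 3, 2.52 without control replicate 2 and 3.05 without both replicate 3 libraries.

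PPP2R1A made up 2.44%, 2.54% and 0.0115% of the scaffold counts in malathion replicates 1, 2 and 3 and 2.20%, 3.57% and 0.0456% in control replicates 1, 2 and 3. The low counts of PPP2R1A in the replicate 3 libraries were thus not shared by PPP2R1B, in either group. The Wilson 95% intervals there, 0.00446% to 0.0295% in malathion and 0.0240% to 0.0867% in control replicate 3, lay far below those of the other libraries (lowest bound 2.02%). Means were 1.66% ± 1.43 in malathion and 1.94% ± 1.77 in control libraries (SD, n = 3 each; exact two-sided permutation p = 0.9, adjusted p = 0.9). The difference of −0.272 percentage points turned to 0.555 without malathion replicate 3 and to 0.544 without control replicate 2, and was −0.390 without both replicate 3 libraries.

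PPP2R2A made up 31.7%, 33.1% and 88.2% of the summed PPP2R2A and PPP2R5C counts in malathion replicates 1, 2 and 3, against 42.0%, 15.6% and 58.9% in control replicates 1, 2 and 3. These genes belong to families with different targets, and other regulatory genes are not in the sum. PPP2R2B, another B55 gene, held 2514 counts against 363 of PPP2R2A in control replicate 2. In malathion replicate 3 it held 9 against 1143. Again each group had its highest share of PPP2R2A in replicate 3. Means were 51.0% ± 32.2 in malathion and 38.9% ± 21.8 in control libraries (SD, n = 3 each; exact two-sided permutation p = 0.7, adjusted p = 0.9). The difference of 12.1 percentage points turned to −6.46 without malathion replicate 3, and was 0.514 without control replicate 2 and 3.57 without both replicate 3 libraries. With 3 against 3 libraries the smallest possible p is 0.1, so none of the 3 shares could pass 0.05. The share of ENSA in ENSA and ARPP19 could not be formed.

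**Figure D4:**
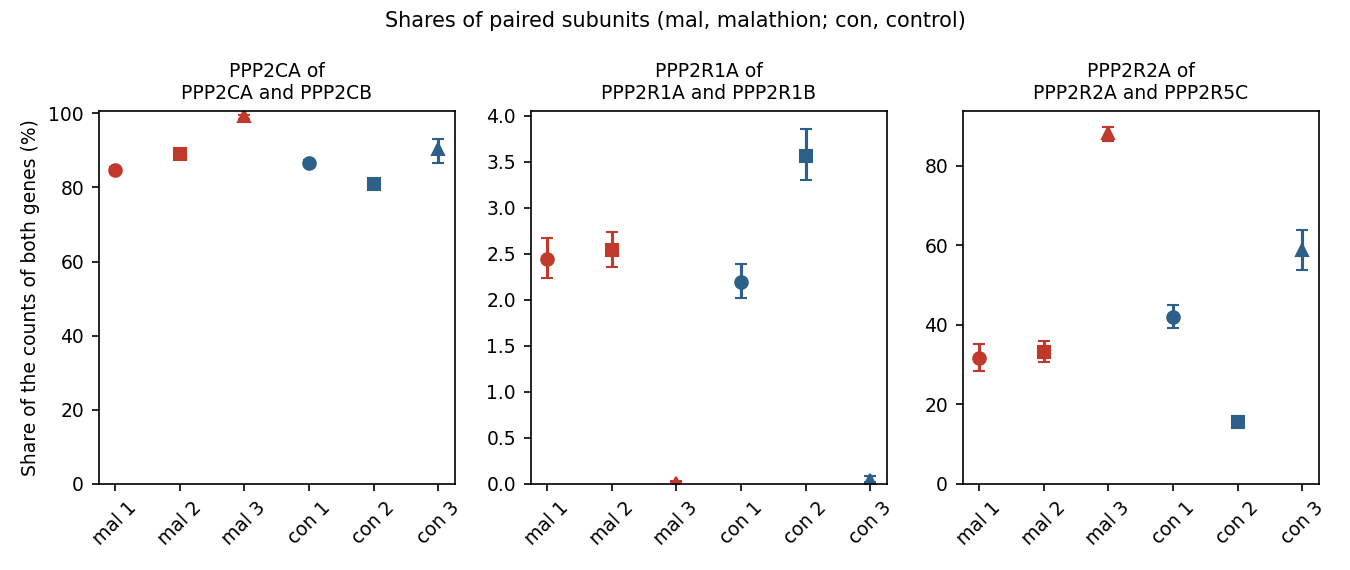
Share (%) of the first gene in the summed counts of both genes, for the catalytic, scaffold and regulatory pairs, in each malathion (mal, red) and control (con, blue) library, with Wilson 95% intervals that cover counting error only. The scaffold share is at 0.0115% and 0.0456% in the replicate 3 libraries and between 2.20% and 3.57% in the others.

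Genes around the switch were read from 5 lists of 47 genes, of which 37 had a row and 32 were tested, and none of the 32 passed edgeR's test or had an unadjusted p under 0.05. Among other regulatory subunits of PP2A, 11 were tested, with 5 positive and 6 negative signs and a median log2 fold change of −0.16. The B56 gene PPP2R5D, with 73, 11 and 0 counts in malathion replicates 1, 2 and 3 and 37, 254 and 1 in control replicates 1, 2 and 3, had −1.73 ± 2.64 (SE), and PPP2R3A, of the B″ family, had −1.62 ± 2.505. Both were highest in control replicate 2, at 9.37 and 14.7 CPM, and their signs turned without it (0.65 and 0.22).

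Of genes for PP2A assembly, modification and inhibition, 4 were tested and each had a negative sign (median −0.49). TIPRL, which binds catalytic subunits of this phosphatase family, had −1.41 ± 2.36 (SE) and PABIR2, a relative of the PP2A-B55 inhibitor PABIR1, had −0.83 ± 2.14. Control replicate 2 was again the highest library for both, at 22.8 and 31.9 CPM, and without it the values were 0.56 and 0.04. Of other phosphatases of mitotic exit and their kin, 5 were tested, with 2 positive and 3 negative signs (median −0.10). PPP1CC, a catalytic subunit of PP1, had 0.51 ± 1.82 with 465 CPM in malathion replicate 3 against at most 212 CPM elsewhere, and −0.17 without that library. CTDP1, a phosphatase better known for acting on RNA polymerase II, had −0.76 ± 2.52 on library totals, and 0.04 with TMM and 0.02 with DESeq2 size factors.

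For CDK1 and its regulators, 9 genes were tested, with 3 positive and 6 negative signs (median −0.51). CDC25B, a phosphatase that activates CDK1, stood at 149, 231 and 256 CPM in malathion replicates 1, 2 and 3, against 152, 1268 and 3895 CPM in control replicates 1, 2 and 3 (log2 fold change −3.06 ± 1.94, SE). Its replicate 1 libraries were alike and the difference lay in the other control libraries. Without both replicate 3 libraries the log2 fold change was −1.90. With control replicate 2 left out as well it was 0.32, with control replicate 1 as the only control library. CDK1 itself had −3.18 ± 2.07, and 1.04 without control replicate 2.

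Proteins that dock PP2A-B56 were read from 3 tested genes, each with a positive sign (median 0.17). BUB1B, the checkpoint protein that binds B56 at kinetochores, stood at 698, 615 and 7.42 CPM in malathion replicates 1, 2 and 3 and at 609, 194.9 and 6.68 CPM in control replicates 1, 2 and 3 (log2 fold change 0.70 ± 1.81, SE). It stood at 0.13 without control replicate 3 and at 2.13 without control replicate 1. SGO1, a shugoshin, had 0.17 ± 1.84, with −0.27 without malathion replicate 1, −0.18 without malathion replicate 2 and −0.40 without control replicate 3.

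The genes whose pattern was most like that of ENSA were sought among 4719 named genes with a mean of at least 10 CPM, by Pearson's r of log2(CPM + 1) over the 6 libraries. The 3 closest were NDUFB11 (r = 0.9994), a subunit of respiratory complex I, CDK1 (r = 0.9993) and the peptidase gene DNPEP (r = 0.9987). The ranking depended on the scale: with TMM factors these genes ranked 4 (NDUFB11), 66 (CDK1) and 26 (DNPEP), and on log2(CPM + 10) they ranked 1, 20 and 2 in the same order. CDK1 stood at 9.96, 22.3 and 0.733 CPM in malathion replicates 1, 2 and 3 and at 9.68, 289 and 1.02 CPM in control replicates 1, 2 and 3. As for ENSA, control replicate 2 was far above the rest and the replicate 3 libraries were lowest. NDUFB11 reached 69.6 CPM and DNPEP 56.9 CPM in control replicate 2, against at most 7.24 and 6.81 CPM elsewhere. The likeness rests on that library and the replicate 3 libraries, which stand apart, and it is a description of 6 libraries.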

How the data were processed

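The deposited files hold raw read counts per Ensembl gene, 1 file per library. Per the submitters' processing notes, STAR 2.5.3a, HTSeq 0.9.1 and DESeq2 1.20.0 were used, while what each was used for, and the build, gene models and strand option, are not given in the sources used here. Per the labels' protocols, cDNA was amplified by a modified Smart-seq2 method, which uses no molecular identifiers, so intervals cover counting error only. Of all reads in a file, 36.7% to 42.6% lay in the 5 HTSeq rows of reads given to no gene, which were left out. Reads of a gene and of one that overlaps it, on either strand, may have been mixed.

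Members were matched by symbol (14857 of 25880 identifiers had one). Tests used edgeR 4.0.16 (R 4.3.3, limma 3.58.1), the quasi-likelihood F test, two-sided, on library totals without further scaling, with filterByExpr (minimum count 10, minimum total 15) and a Benjamini-Hochberg threshold of 0.05. Standard errors came from the fold change and its F value. In the alternative with TMM, factors were between 0.138 and 3.57, and the replicate 3 libraries had the smallest. DESeq2 here was version 1.42.0. Single-pair ratios and ranges used CPM plus a pseudocount of 1. No pair of libraries was a duplicate (chi-square per degree of freedom at least 56.9).

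Members, lists and the naming rule were chosen with earlier results of these data known. The rule names each member, the 2 genes of each list with the smallest p, and the 3 genes most like ENSA. It asked the same for ARPP19, which had no value. Across genes, libraries with the same number deviated together from the means of their groups (r = 0.467, 0.378 and 0.587 for replicates 1, 2 and 3). Within a group such deviations cancel out, and replicate 3 stood apart in both groups. Replicates 1 and 2 therefore deviate together whatever their numbers, and this check can link only the replicate 3 libraries. It could not pair numbers 1 and 2. Malathion replicate 2 deviated more closely with control replicate 1 (r = 0.439) than with control replicate 2. For malathion replicate 1 and control replicate 2, r was also positive (0.261). Pairs of the same number and the replicate block are thus a convention, as the labels leave the meaning of the numbers open. No coordinates or sequences are printed.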

Additional observations from a re-analysis of the deposited data

How the results depend on the processing

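No call changed: 0 of all genes, 0 members and 0 genes of the 5 lists passed under each of the 14 alternatives, including the fit with the replicate number as a block (136 genes at an unadjusted p under 0.05), which changed no call of any gene. DESeq2's test gave no p to MASTL, ENSA, PPP2R1B and PPP2R2A and so could not call them. With intervals as wide as these, an unchanged count of 0 says nothing about stability.

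Signs were less stable, and where no value below shows the cause, the cause was not tested. Scaling turned PPP2CA (0.61 with TMM factors, 0.60 with DESeq2 size factors and with DESeq2's test), PPP2R1A (0.065 with TMM factors) and CTDP1 (0.038, 0.025 and 0.018 in the same order). PPP2CA also turned with limma-voom (0.38) and with the replicate block (0.42). Without both replicate 3 libraries, MASTL stood at 0.42, PPP2R2A at −0.35 and PPP1CC at −0.25. Leaving out control replicate 2 as well leaves control replicate 1 as the only control library, so the values that follow are effect sizes only. With control replicate 2 left out as well, values were 0.67 for ENSA, 0.047 for PPP2CA, 0.091 for PPP2R1A, −0.098 for PPP2R1B, −0.48 for PPP2R2A, 0.11 for PPP2R5C, 0.27 for PPP2R5D, 0.079 for PPP2R3A, 0.13 for TIPRL, −0.12 for PPP1CC, 0.32 for CDC25B and 0.73 for CDK1.

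Leaving out 1 library at a time gave log2 fold changes from −4.84 to 1.03 for ENSA, −0.80 to 0.48 for PPP2CA, −1.16 to 0.34 for PPP2CB, −0.62 to 0.55 for PPP2R1A, −0.071 to 0.76 for PPP2R2A and −1.55 to 0.34 for PPP2R5C, while MASTL (−1.31 to −0.13) and PPP2R1B (0.09 to 0.35) kept their sign. In the lists the ranges were −4.16 to 0.65 for PPP2R5D, −2.14 to 0.22 for PPP2R3A, −2.004 to 0.56 for TIPRL, −1.36 to 0.043 for PABIR2, −0.17 to 0.82 for PPP1CC, −4.22 to 1.04 for CDK1 and −0.40 to 0.74 for SGO1. The shares moved from −1.22 to 0.55 percentage points for PPP2R1A and from −6.46 to 22.2 for PPP2R2A (malathion minus control), and from 0.902 to 8.09 for PPP2CA. With TMM factors none of the 3 genes closest to ENSA was among the 3 closest (r of 0.9945 at rank 4 for NDUFB11, 0.9786 at rank 26 for DNPEP and 0.9529 at rank 66 for CDK1), and with log2(CPM + 10) CDK1 was at rank 20. The few counts of ENSA, PPP2R1A and PPP2CB in the replicate 3 libraries limit what can be said of them there.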
